A study of Mus musculus with 16 samples.

Results

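Complement transcripts were followed across skeletal muscle of CHCHD4 Tg and wild-type (WT) mice. The 9 genes described here were taken by symbol from a table of 55487 gene rows: C1qa, C1qb and C1qc, C1s1, C4b, C3, Cfb, C3ar1 and C5ar1. All 9 were found once each, and all 9 passed the filter on low counts. CHCHD4 is a mitochondrial intermembrane-space protein that oxidises the cysteines of imported proteins. The 16 RNA-seq libraries fell into 4 groups of 4: CHCHD4 Tg with treadmill training (Tg trained), CHCHD4 Tg without it (Tg untrained), WT with treadmill training (WT trained) and WT without it (WT untrained). The comparison bears on how the muscle transcriptome differs with CHCHD4 and with training. The labels used here give no muscle, strain, age, promoter of the transgene or length of training. They do not say whether libraries came from separate animals, so the p-values measure the spread between libraries, which may be technical in part.

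Complement is a set of plasma and cell-surface proteins that tag microbes, dying cells and debris. In the classical pathway C1q binds a target and its partner proteases C1r and C1s cut C4 and C2, whose fragments form an enzyme that cuts C3. In the alternative pathway C3 and factor B build a further C3-cutting enzyme. Fragments of C3 and C5 then signal to leukocytes through the receptors C3aR1 and C5aR1. Outside the liver, C1q is made mainly by macrophages, while C1r, C1s, C3 and C4 are also made by fibroblasts and other stromal cells. In RNA from whole tissue, fewer cells of a type and less RNA per cell cannot be told apart.

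The 3 C1q genes lie in a row on the minus strand of chromosome 4 (GENCODE annotation of GRCm38), with C1qa at 136895917 to 136898803, C1qc at 136889804 to 136893065 and C1qb at 136880129 to 136886187. The gaps are 2851 bases between C1qa and C1qc and 3616 bases between C1qc and C1qb. C4b (34728380 to 34743882) and Cfb (34856374 to 34862518) share a stretch of chromosome 17, 112491 bases apart, and Cfb lies 85 bases from C2, which encodes the other protease of the classical C3-cutting enzyme. C3 lies farther along chromosome 17 (57203970 to 57228136). C1s1 (124530345 to 124542359) and C3ar1 (122847138 to 122856161) are on chromosome 6 and C5ar1 (16246743 to 16259540) is on chromosome 7. RefSeq windows from 250 bases before to 50 bases after the annotated start (GRCm38.p6) were available for 6 of the 9 genes. The 250 bases before the start are shown for C1qb, C1qc and C3, since the C1q transcripts moved together across libraries and C3 held the called difference. Capitals in C1qb and C1qc mark GAGGAA or its reverse complement, the core bound by the macrophage factor PU.1. Capitals in C3 mark TTNCNNAA or its reverse complement, a degenerate form of the C/EBP motif. All 3 are read on the minus strand, from chr4:136886201-136886450, chr4:136892915-136893164 and chr17:57228137-57228386.
C1qb: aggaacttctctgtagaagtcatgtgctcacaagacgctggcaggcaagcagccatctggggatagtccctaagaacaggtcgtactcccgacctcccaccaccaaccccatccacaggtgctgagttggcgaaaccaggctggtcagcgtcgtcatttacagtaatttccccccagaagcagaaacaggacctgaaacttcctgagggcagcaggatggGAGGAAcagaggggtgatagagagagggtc
C1qc: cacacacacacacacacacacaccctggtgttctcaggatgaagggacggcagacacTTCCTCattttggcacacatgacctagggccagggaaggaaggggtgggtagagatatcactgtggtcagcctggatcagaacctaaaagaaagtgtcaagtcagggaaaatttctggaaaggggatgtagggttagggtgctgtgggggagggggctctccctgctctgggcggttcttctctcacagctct
C3: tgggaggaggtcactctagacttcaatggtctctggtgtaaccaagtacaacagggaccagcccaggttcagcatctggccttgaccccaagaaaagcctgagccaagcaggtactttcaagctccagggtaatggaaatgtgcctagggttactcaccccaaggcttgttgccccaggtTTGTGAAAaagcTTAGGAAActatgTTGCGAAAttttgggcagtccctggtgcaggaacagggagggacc
The PU.1 core occurred in 2 of the 6 windows, those of C1qb and C1qc, and in 28.3% of 32851 mouse windows of the same length. Counted from the RefSeq start, it began 30 bases before it in C1qb and 193 bases before it in C1qc. The GENCODE start of C1qc, at 136893065, lies within the bases shown (136892915 to 136893164). Part of the C1qc sequence is therefore inside the GENCODE gene, and the distance to that start is shorter. The C/EBP form occurred in 4 of the 6 windows (C1qc, C1s1, C3 and C5ar1) and in 40.7% of all windows. In C3 it was found at 3 places, beginning 70, 58 and 45 bases before the start and not overlapping each other; 3.6% of all windows held 3 or more. A TATAAA, on either strand, was found in the C3 and C3ar1 windows and in 13.6% of all windows, and in C3 it began 14 bases after the annotated start, past the bases shown. These matches describe the letters only, since no binding was measured here.

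Depth was 40888325 to 61703724 counts per library. Chchd4 measured 18.1 to 22.2 CPM (read counts as a rate of the TMM-scaled library total) in the 8 Tg libraries and 6.88 to 8.98 CPM in the 8 WT libraries, so the genotypes were apart in every library. Transcripts of muscle fibres dominated, with the 9 fibre markers summing to 126600 to 191500 CPM. In 3 libraries Alb, a liver transcript, stood at 14.97 CPM (Tg untrained replicate 2), 35.56 CPM (WT trained replicate 4) and 14.93 CPM (WT untrained replicate 2). It was at most 0.24 CPM in the other 13 libraries. Those 3 libraries also held the highest C3 value of their groups. The liver makes much of the body's C3, C4 and factor B. Where leaving out those 3 libraries, or the one that counted most, moved a log2FC by over 1.5 times, the new value is given. Some values near 0 are excepted. This was done for the 9 members, Masp1, Cfp and Cd59a. Other complement genes and the marker lists were not checked in this way.

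C3, the central component that both pathways converge on, was the most abundant of the 9 transcripts per length and the only one called in any comparison. It averaged 27.99 ± 11.01 CPM over Tg libraries and 51.6 ± 20.9 CPM over WT libraries (SD, n = 8 each), and with the genotypes compared over both training states it fell by 0.93 on the log2 scale in Tg (SE 0.191, adjusted p = 0.0280, edgeR). C1q, the recognition unit, and Cfb, which encodes factor B, had log2FC of similar size without passing the threshold. C1s1, which encodes the protease that C1q sets off, stood at nearly equal levels in Tg and WT libraries. The 3 lowest C3 values of the series lay in trained Tg muscle. A gene was called where its Benjamini-Hochberg adjusted p over all 17490 tested genes was under 0.05, and a log2FC is the fitted log2 fold change, negative where Tg or trained muscle was lower.

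C1q is built of A, B and C chains, encoded by C1qa (ENSMUSG00000036887.5), C1qb (ENSMUSG00000036905.8) and C1qc (ENSMUSG00000036896.5). C1qa measured 2.92, 1.93, 2.40 and 1.90 CPM in Tg trained replicates 1 to 4 and 4.39, 4.59, 4.83 and 2.71 CPM in Tg untrained libraries. In WT trained libraries it measured 5.08, 2.22, 4.45 and 7.57 CPM, and in WT untrained libraries 5.09, 7.55, 4.48 and 4.07 CPM. Trained Tg libraries were low throughout, and WT trained replicate 2 lay among them, while the other WT libraries stood above all 4 trained Tg libraries. C1qb measured 2.21, 1.54, 1.59 and 1.36 CPM in Tg trained and 2.53, 3.79, 3.56 and 1.94 CPM in Tg untrained libraries. Its WT values were 4.26, 1.48, 4.03 and 6.41 CPM with training and 4.12, 5.33, 3.47 and 3.52 CPM without it. WT trained replicate 2 was again the low library of its group, so the trained groups overlapped. C1qc ran from 2.02 to 2.62 CPM in Tg trained, from 2.32 to 4.44 in Tg untrained, from 1.23 to 6.99 in WT trained and from 3.75 to 6.36 in WT untrained libraries. Its lowest value of all 16 libraries came from WT trained replicate 2.

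Between Tg and WT trained muscle the fitted log2FC were -1.09 for C1qa (SE 0.301, adjusted p = 0.349), -1.28 for C1qb (SE 0.328, adjusted p = 0.338) and -0.97 for C1qc (SE 0.352, adjusted p = 0.484). None was called by edgeR. Between the untrained groups they were -0.36, -0.48 and -0.42, with adjusted p of 0.576, 0.486 and 0.589. Those of C1qa and C1qc were -0.14 and -0.24 without WT untrained replicate 2, and that of C1qb was -0.32 without Tg untrained replicate 4. Over both training states they were -0.73, -0.88 and -0.69, with adjusted p of 0.0909, 0.0682 and 0.158. The 2 extreme WT trained libraries pulled these values in opposite directions. Without WT trained replicate 2, the lowest, C1qb was called lower in trained Tg muscle (log2FC -1.55, adjusted p = 0.0264), and all 3 were called lower over both states (adjusted p of 0.0228 for C1qa, 0.0109 for C1qb and 0.0179 for C1qc). Without WT trained replicate 4, the highest and a library with Alb, the log2FC between the trained groups were -0.78, -0.96 and -0.64 (adjusted p of 0.749, 0.741 and 0.903) and over both states -0.58, -0.72 and -0.53 (adjusted p of 0.164, 0.121 and 0.275). DESeq2 called C1qb lower between the trained groups (adjusted p = 0.0398). Within Tg, the log2FC with training were -0.85 for C1qa (95% interval -1.49 to -0.22), -0.82 for C1qb and -0.69 for C1qc. Without the 4 libraries above 10 CPM of Myh7, the slow-fibre myosin gene, those of C1qb and C1qc were -0.42 and -0.32. Within WT they were -0.13, -0.02 and -0.14. The test of the difference between these responses gave adjusted p of 0.850, 0.846 and 0.918, so the genotypes were not shown to respond differently.

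The 3 chains moved together, though not in fixed proportion. The ratio of C1qa to C1qb CPM was 1.4 ± 0.166 in Tg and 1.26 ± 0.136 in WT libraries (SD, n = 8 each). The ratio of C1qc to C1qb CPM was 1.18 to 1.49 in Tg trained, 1.17 to 1.26 in Tg untrained, 0.828 to 1.15 in WT trained and 0.995 to 1.34 in WT untrained libraries. It was thus higher in every trained Tg than in every trained WT library, while the untrained groups overlapped, and it is given without a test. Among single genes, 2.94% of all tested were higher in every trained Tg than in every trained WT library. No such share was computed for ratios to C1qb. Across the 16 libraries Pearson's r of log2 CPM was 0.97 between C1qa and C1qb and 0.96 between C1qb and C1qc. These correlations describe libraries that share the group differences; after centring each group they were 0.95 and 0.97.

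C1s1 (ENSMUSG00000038521.17) encodes C1s, the protease of the C1 complex that cuts C4 and C2. It measured 19.0, 14.9, 16.2 and 16.2 CPM in Tg trained and 20.7, 23.6, 20.9 and 17.1 CPM in Tg untrained libraries. In WT it measured 19.6, 14.3, 15.4 and 21.2 CPM with training and 21.8, 23.8, 19.3 and 18.1 CPM without it. The genotypes overlapped at each training state, and C1s1 varied least of the 9, with a coefficient of variation of 15.9% over 16 libraries. Its log2FC in Tg over both states was -0.05 (95% interval -0.245 to 0.141, adjusted p = 0.813). That interval leaves out the fitted log2FC of C3, which has an error of its own, and no test compared C1s1 with C3. With training the log2FC of C1s1 was -0.31 in Tg (adjusted p = 0.386) and -0.23 in WT (adjusted p = 0.588). Averaged over genotypes it was -0.27 (SE 0.0911, adjusted p = 0.190). Without the 4 Myh7 libraries these were -0.19, -0.11 and -0.15. The near-identical copy C1s2, between which and C1s1 RSEM divides shared reads, stood at no more than 0.105 CPM.

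C4b (ENSMUSG00000073418.4) encodes C4, which C1s cuts and which leaves C4b bound to the target. It measured 3.97, 2.53, 7.16 and 2.37 CPM in Tg trained and 16.9, 13.7, 9.91 and 6.13 CPM in Tg untrained libraries. It measured 6.79, 5.30, 11.7 and 14.4 CPM in WT trained and 11.7, 42.5, 11.2 and 8.82 CPM in WT untrained libraries. It spread more than any of the other 8, over a 17.9-fold range, and its highest value came from WT untrained replicate 2, a library with Alb. Its log2FC with training in Tg was -1.54 (SE 0.518, adjusted p = 0.296), the largest in size among the members in that comparison, and the trained and untrained Tg groups overlapped. Between Tg and WT trained muscle the log2FC was -1.25 (SE 0.521, adjusted p = 0.574), and leaving out any 1 library kept it between -1.70 and -0.98. Other values of C4b moved with 1 library. With training in WT the log2FC was -0.96 with all libraries and -0.15 without WT untrained replicate 2. Between Tg and WT untrained muscle it was -0.67 with all libraries and 0.14 without that replicate, and over both states -0.96 and -0.56. C4a, which shares reads with C4b, measured at most 0.165 CPM.

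C3 (ENSMUSG00000024164.15) measured 26.2, 15.4, 20.9 and 16.3 CPM in Tg trained and 38.4, 46.2, 35.3 and 25.3 CPM in Tg untrained libraries. It measured 46.4, 28.7, 39.6 and 56.7 CPM in WT trained and 53.2, 98.4, 40.4 and 49.1 CPM in WT untrained libraries. All 4 trained Tg libraries lay below all 4 trained WT libraries, as 2.76% of all tested genes did, while the untrained groups overlapped through Tg untrained replicate 2. The log2FC of Tg against WT was -1.12 with training (SE 0.273, adjusted p = 0.287) and -0.73 without it (SE 0.268, adjusted p = 0.203), where leaving out WT untrained replicate 2 gave -0.39 (adjusted p = 0.429). The call over both states (95% interval -1.33 to -0.52) was close to the threshold. Singly leaving out Tg trained replicate 2, 3 or 4, Tg untrained replicate 1, 3 or 4, or WT trained replicate 3 or 4 gave adjusted p from 0.0517 to 0.0738, with log2FC from -0.95 to -0.85. Without WT untrained replicate 2 the log2FC was -0.76 (adjusted p = 0.0206), and without the 3 libraries with Alb it was -0.74 (adjusted p = 0.0296). With training, the log2FC of C3 was -0.88 in Tg (SE 0.272, adjusted p = 0.253) and -0.49 in WT (SE 0.267, adjusted p = 0.582), and -0.15 in WT without WT untrained replicate 2. The difference between these responses was -0.39 (95% interval -1.195 to 0.413, adjusted p = 0.924), and -0.73 without WT untrained replicate 2 or -0.23 without WT trained replicate 4.

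Cfb (ENSMUSG00000090231.10) encodes factor B, the serine protease that joins C3b in the alternative pathway. It measured 1.95, 1.63, 2.68 and 1.38 CPM in Tg trained and 4.29, 3.58, 2.78 and 2.40 CPM in Tg untrained libraries. It measured 3.16, 3.08, 4.35 and 5.58 CPM in WT trained and 3.96, 7.02, 3.68 and 3.22 CPM in WT untrained libraries. As with C3, every trained Tg library lay below every trained WT library, as was so for 2.76% of all tested genes. The log2FC of Tg against WT was -1.08 with training (SE 0.281, adjusted p = 0.338), -0.46 without it (adjusted p = 0.422) and -0.77 over both states (SE 0.194, adjusted p = 0.0633). DESeq2 called Cfb lower with training (adjusted p = 0.0458). Without WT trained replicate 2 edgeR called it over both states (adjusted p = 0.0465). Without WT untrained replicate 2 the log2FC was -0.15 in untrained muscle (adjusted p = 0.822) and -0.62 over both states (adjusted p = 0.0648), and with single libraries left out the adjusted p over both states reached 0.136.

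The receptors were the least abundant. C3ar1 (ENSMUSG00000040552.8), the receptor for C3a, measured 0.427 to 0.644 CPM in Tg trained, 0.366 to 0.942 in Tg untrained, 0.486 to 1.83 in WT trained and 0.705 to 1.12 in WT untrained libraries. C5ar1 (ENSMUSG00000049130.6), the receptor for C5a, measured 0.298 to 0.408 CPM in Tg trained, 0.381 to 0.758 in Tg untrained, 0.232 to 1.44 in WT trained and 0.665 to 1.11 in WT untrained libraries. In both, the highest value came from WT trained replicate 4, and the counts behind these values were low, 20 to 88 for C3ar1 and 10 to 69 for C5ar1. Over both states the log2FC in Tg was -0.62 for C3ar1 (SE 0.252, adjusted p = 0.217) and -0.83 for C5ar1 (SE 0.299, adjusted p = 0.164). Between the trained groups they were -0.76 and -0.89, and without WT trained replicate 4 they were -0.18 and -0.21. Without that library the values over both states were -0.33 (adjusted p = 0.401) and -0.49 (adjusted p = 0.320). Hc, which encodes the C5 that gives rise to C5a, was below the filter, with 0 counts in 11 of the 16 libraries.

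**Figure D1:**
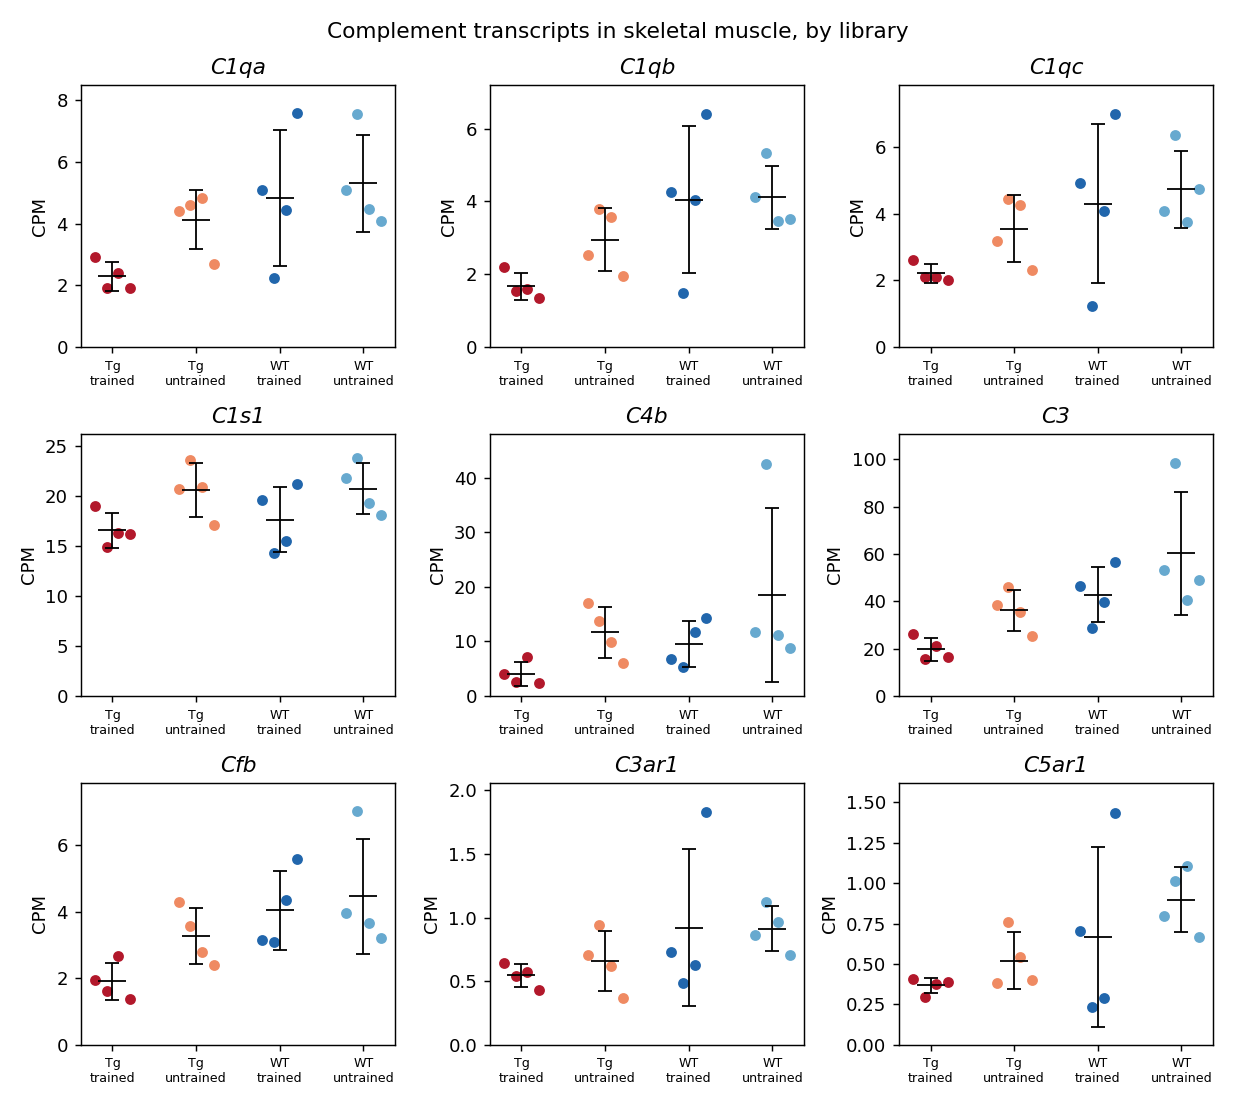
CPM of the 9 complement transcripts in each library, from left to right Tg trained, Tg untrained, WT trained and WT untrained; points are replicates 1 to 4 in order, and black marks are the group mean with 1 SD. Tg trained has the lowest group mean in every panel, and WT untrained replicate 2 stands at 98.4 CPM for C3 and 42.5 CPM for C4b.

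Read as a group, the 9 genes leaned toward lower values in Tg muscle. Over both training states the log2FC was negative for 9 of 9, and their median was -0.77, where the median of all 17490 tested genes was -0.001. Without the 3 libraries with Alb the members' median was -0.50, with 9 of 9 negative. Among them 1 was called lower, C3, against 88 genes called lower in all, 0.503% of those tested. Of the 9, 8 had an unadjusted p under 0.05, all but C1s1, against 8.89% of all tested genes that were lower at that level. Between the trained groups the median was -1.08, with 9 of 9 negative and 0 called by edgeR, against 0.0114% of all genes called in either direction. There 6 had an unadjusted p under 0.05, against 4.73% of all tested genes lower at that level. DESeq2 called 3 of the 9, where it called 55 of all 17490 genes, and limma-voom called 0, where it called 2. Between the untrained groups the median was -0.48, with 9 of 9 negative, 0 called in edgeR, DESeq2 or limma-voom (0.743% of all genes were in edgeR) and 1 at an unadjusted p under 0.05, against 7.98% of all tested genes lower at that level. That median was -0.24 without WT untrained replicate 2 (7 of 9 negative) and -0.32 without Tg untrained replicate 4 (8 of 9 negative). The members rise and fall together across libraries, so their shared sign counts as far fewer than 9 independent observations, and the comparisons share libraries.

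**Figure D2:**
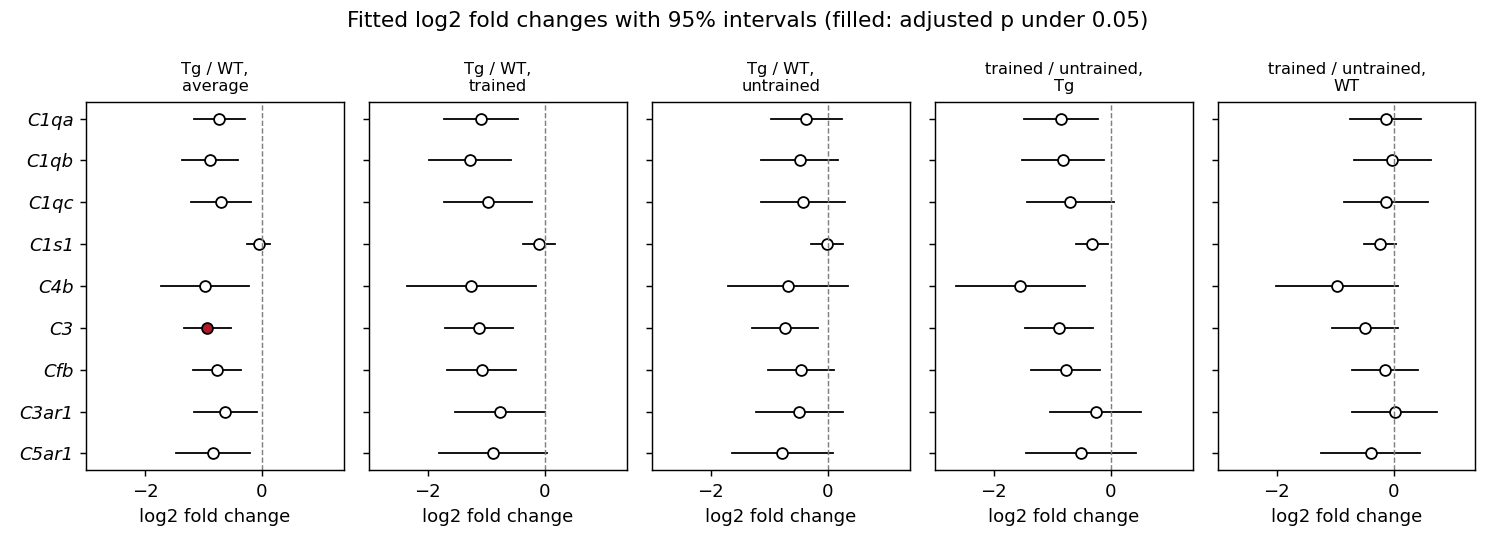
Fitted log2 fold changes of the 9 transcripts with 95% intervals, in 3 comparisons of Tg with WT and 2 of trained with untrained muscle; filled points have an adjusted p under 0.05 (edgeR). C3 in the average over training states is the only filled point, at -0.93, and C1s1 stays near 0 in the Tg comparisons.

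Training moved no member past the threshold in either genotype. In Tg the log2FC with training was negative for 9 of 9, with a median of -0.77 and 0 called in edgeR, DESeq2 or limma-voom (0% of all genes were in edgeR), and 6 had an unadjusted p under 0.05, against 6.81% of all tested genes lower at that level. In WT, 8 of 9 were negative, with a median of -0.15, 0 called (0.143% of all genes were) and 0 at an unadjusted p under 0.05, against 4.79% lower among all genes; limma-voom and DESeq2 called 0 as well. The difference between the responses was negative for 9 of 9 (median -0.55), with 0 called in edgeR, DESeq2 or limma-voom and 0 at an unadjusted p under 0.05, where 0.0515% of all genes were called and 3.6% were lower at an unadjusted p under 0.05. Averaged over genotypes the median was -0.45, with 0 called (0.457% of all genes were). There 5 had an unadjusted p under 0.05, against 7.76% lower among all genes. DESeq2 called C3 (adjusted p = 0.0248) as 1 of 366 genes. These medians moved with the libraries used. Without the 4 Myh7 libraries they were -0.42 in Tg (8 of 9 negative), 0.065 in WT (4 of 9) and -0.15 averaged over genotypes (8 of 9). With single libraries left out the median in WT ran from -0.47 without WT trained replicate 4 to 0.039 without WT untrained replicate 2, and the median difference was -0.23 without WT trained replicate 4 (6 of 9 negative). The 6 adipocyte markers were negative too, 6 of 6 in Tg (median -2.51, 0 called) and 6 of 6 in WT (median -1.39, 0 called), and 5 of the 6 were called lower with training over both genotypes. Their summed level was 60.4 to 70.5 CPM in Tg trained, 74.8 to 111.0 in Tg untrained, 65.7 to 69.3 in WT trained and 65.9 to 86.5 in WT untrained libraries. That sum was mostly Fabp4, at 58.8 to 77.8 CPM, while no other marker of the 6 exceeded 9.21 CPM. It therefore says little about the less abundant markers. Adipose tissue makes C3, factor B and adipsin, and its part in the values with training was not tested.

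Per kilobase of exon, C3 averaged 7.73 ± 3.93 CPM (SD, n = 16) and C1s1 6.03 ± 0.961, followed by C1qa at 3.98 ± 1.69, C1qb at 2.94 ± 1.36, C4b at 1.92 ± 1.66, C1qc at 1.92 ± 0.836 and Cfb at 1.21 ± 0.512. C5ar1 (0.238 ± 0.133) and C3ar1 (0.176 ± 0.0815) came last. The order was not firm at the top, since C3 exceeded C1s1 in 11 of 16 libraries, nor between C4b and C1qc, where C4b was higher in 6. C1s1 exceeded C1qa in 15 libraries, C1qa exceeded C1qb in all 16, and Cfb exceeded C5ar1 in all 16. With the longest transcript as the length, C1qc moved up to 3.08 CPM per kilobase, between C1qa and C1qb.

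C3 and C1s1 parted by genotype. The ratio of C3 to C1s1 CPM was 1.01 to 1.38 in Tg trained, 1.48 to 1.96 in Tg untrained, 2.01 to 2.68 in WT trained and 2.10 to 4.13 in WT untrained libraries. The highest Tg library lay below the lowest WT library, and 0.0686% of all tested genes were below in every Tg library in the same way when divided by C1s1. The ratio was chosen after its values were seen, so it is given without a test. C3 divided by the sum of the 10 fibroblast markers was 0.0279 to 0.0618 in Tg and 0.0486 to 0.127 in WT libraries, with overlap.

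**Figure D3:**
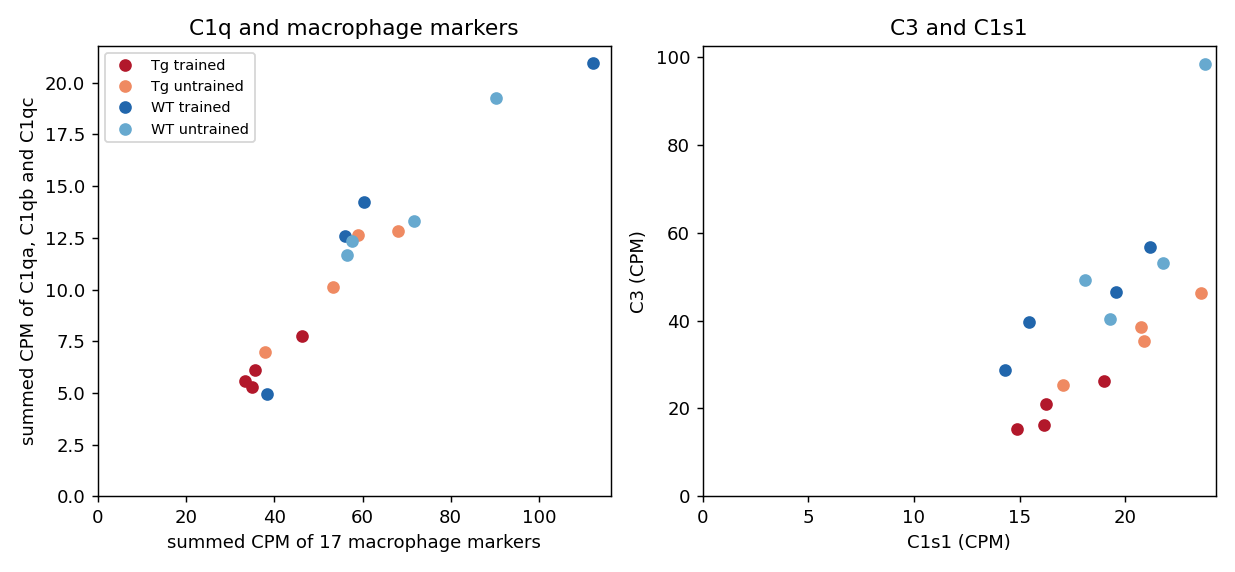
Left, the summed CPM of the 3 C1q genes against the summed CPM of 17 macrophage markers; right, C3 against C1s1 in CPM; each point is a library, coloured by group. C1q follows the macrophage sum in all groups, while at a given C1s1 level the 8 Tg points lie under the 8 WT points for C3.

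Markers of the cells that make these proteins moved with some of them. Of 17 macrophage and monocyte markers, 16 were tested. In Tg against WT, 16 of 16 had a negative log2FC with training (median -0.88) and over both training states (median -0.62). Without training 15 of 16 were negative (median -0.27). In each of these comparisons 0 were called, against 0.0114%, 1.12% and 0.743% of all genes in the same order. Their summed level was 33.4 to 46.3 CPM in Tg trained, 37.9 to 68.0 in Tg untrained, 38.3 to 112.3 in WT trained and 56.5 to 90.2 in WT untrained libraries. The 112.3 CPM came from WT trained replicate 4, a library with Alb, and the rest of that group reached at most 60.3 CPM. No marker median was computed without that library. The C1q sum was 5.28 to 7.75 CPM in Tg trained, 6.97 to 12.8 in Tg untrained, 4.93 to 20.98 in WT trained and 11.7 to 19.3 in WT untrained libraries. As a share of the macrophage sum it was 0.151 to 0.171 in Tg trained, 0.184 to 0.214 in Tg untrained, 0.129 to 0.236 in WT trained and 0.186 to 0.214 in WT untrained libraries. The share in trained Tg libraries lay below that in untrained Tg libraries, and WT trained libraries spanned both. Among single genes, 4.53% of all tested lay lower in every trained than in every untrained Tg library. How many such shares of a sum part in this way was not computed. The 10 fibroblast markers summed to 501.7 to 779.7 CPM in Tg trained, 637.3 to 1005 in Tg untrained, 505.6 to 994.5 in WT trained and 750.4 to 1011 in WT untrained libraries. Their median log2FC was -0.07 in Tg over both states (8 of 10 negative, 0 called) and -0.31 with training in Tg (10 of 10 negative, 0 called). Neutrophil markers were scarce, with Ly6g at 0 counts in 15 libraries. Whether cell numbers account for any of these values was not tested.

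By the pattern over the 16 libraries, the genes most like C1q, C1s1 and C3 differed, though macrophage and fibroblast patterns were not distinct. Among 11091 named genes with a mean of at least 1 CPM, the 3 highest Pearson correlations of log2 CPM were taken for each member, as a description with no p. F13a1, a coagulation factor gene expressed in tissue macrophages, came first for all 3 C1q genes, at r of 0.97 for C1qa, 0.97 for C1qb and 0.94 for C1qc. It was followed by the macrophage genes Mrc1 (0.96, mannose receptor) for C1qa, Adgre1 (0.96) and Cd163 (0.96, haemoglobin scavenger receptor) for C1qb, and Lyve1 (0.94) and Adgre1 (0.93) for C1qc. Emilin2, a matrix glycoprotein gene, also ranked among the 3 for C1qa (0.96). C1s1 was most like Pdgfra, the receptor that marks fibro-adipogenic progenitors (r = 0.97), then Svep1 (0.94) and Rassf2 (0.94). C3 was most like Procr, the protein C receptor gene (r = 0.98), then Rassf4 (0.95) and Clec10a (0.94), a lectin gene of macrophages and dendritic cells. C4b and Cfb shared Serpina3n, an acute-phase protease inhibitor gene (0.93 and 0.97), and Ifi27l2a, an interferon-inducible gene (0.97 and 0.93). Cyp2e1, at 0.93, was also among the 3 for C4b, and Pltp, a lipid transfer protein gene, at 0.95 for Cfb. C4b and Cfb were also close to each other, at r of 0.95 over all libraries and 0.98 after centring each group. C3ar1 was most like the leukocyte genes Lilrb4a (0.93), Nckap1l (0.93) and Lyz2 (0.91), and C5ar1 like Tent5a (0.92), Atp10a (0.91) and Tgfbi (0.89). The nearest genes did not part the cell types cleanly. After centring each group, C1s1 had r of 0.931 with Mrc1 and 0.916 with Lyz2, against 0.957 with Pdgfra. C1qa had 0.87 with Pdgfra. Over all libraries, r of C1qa with the tested macrophage markers ran from 0.405 (Cd68) to 0.962 (Mrc1). The points of each correlation share the groups and any difference in cell makeup.

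A further 44 complement genes were listed by role, and 28 of them passed the filter. In Tg against WT over both training states, 20 of the 28 had a negative log2FC (median -0.14), and 3 were called, against 1.12% of all genes. An unadjusted p under 0.05 was found for 11. Of these 9 were lower, against 8.89% of all tested genes lower at that level, and 2 were higher. Among the initiators, Masp1, a protease gene of the lectin pathway, rose in Tg (log2FC 0.44, SE 0.0839, adjusted p = 0.0216), at 2.51, 3.19, 3.09 and 2.83 CPM in Tg trained, 2.31, 2.13, 1.71 and 2.10 in Tg untrained, 1.82, 1.92, 1.65 and 1.75 in WT trained and 1.90, 1.56, 1.77 and 2.01 in WT untrained libraries. All 4 trained Tg libraries stood above every other library; 2.94% of all tested genes were above in every trained Tg against every trained WT library. Without the 3 libraries with Alb its adjusted p was 0.0604, and without Tg trained replicate 2 or 4 or WT trained replicate 3 it was 0.0507 to 0.0550. Of the components, Cfp, which encodes properdin, the stabiliser of the alternative pathway enzyme, fell in Tg at the edge of the threshold (log2FC -0.98, SE 0.226, adjusted p = 0.0499). It averaged 1.09 ± 0.356 CPM in Tg and 2.06 ± 0.804 CPM in WT libraries (SD, n = 8 each). With single libraries left out it was called only without Tg trained replicate 1, WT trained replicate 2 or WT untrained replicate 3 or 4, and it was not called with RLE size factors (adjusted p = 0.0503) or without the libraries with Alb (log2FC -0.67, adjusted p = 0.117). Cfd, the adipsin gene, which encodes factor D, was not called in Tg against WT (log2FC -0.57, adjusted p = 0.495). Its log2FC with training over both genotypes was -1.62 (SE 0.402, adjusted p = 0.0908), at 4.27 ± 2.26 CPM in trained and 12.7 ± 8.58 CPM in untrained libraries (SD, n = 8 each), with adipocyte markers moving beside it as given above.

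Among the regulators, which shield the body's own cells, Cd59a fell in Tg. It encodes an inhibitor of the membrane attack complex. It measured 8.11, 6.53, 7.5 and 6.88 CPM in Tg untrained and 14.4, 11.4, 13.4 and 14.3 CPM in WT untrained libraries, with no overlap, as was so for 4.16% of all tested genes that were lower in Tg (log2FC -0.88, SE 0.159, adjusted p = 0.0185). With training it measured 7.94, 7.0, 7.32 and 5.98 CPM in Tg and 6.97, 6.51, 12.2 and 9.70 CPM in WT libraries, which overlapped. WT untrained libraries thus stood high against most others. Over both states its log2FC was -0.60 (SE 0.113, adjusted p = 0.0216). The untrained call was lost without Tg untrained replicate 2, 3 or 4 or WT untrained replicate 1 (adjusted p of 0.0533 to 0.0623), and the call over both states without Tg trained replicate 2 or 4 (0.0542 and 0.0560). Serping1 and Cd55, which encode the C1 inhibitor and decay-accelerating factor, were not called in any comparison. In Tg over both states their log2FC were -0.16 and -0.12. With training over both genotypes Serping1 had a log2FC of -0.50 (SE 0.126, adjusted p = 0.0941). Of the receptors, Itgam, a subunit of complement receptor 3, had a log2FC of -0.85 in Tg over both states (SE 0.206, adjusted p = 0.0550). Itgax, a subunit of complement receptor 4, had one of -1.75 between Tg and WT trained muscle (adjusted p = 0.287). Its level was low, at 0.0859 to 0.645 CPM. With training in Tg, 20 of the 28 were negative, 0 were called, and Colec12, a scavenger receptor gene with a collectin domain, had a log2FC of -0.57 (SE 0.183, adjusted p = 0.275) with all 4 trained below all 4 untrained Tg libraries, as were 4.53% of all tested genes. The 16 that did not pass the filter included Mbl1, Mbl2, Hc, C6, C8a, C8b and C9, and Vsig4, a complement receptor of resident macrophages, at no more than 0.167 CPM.

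**Figure D4:**
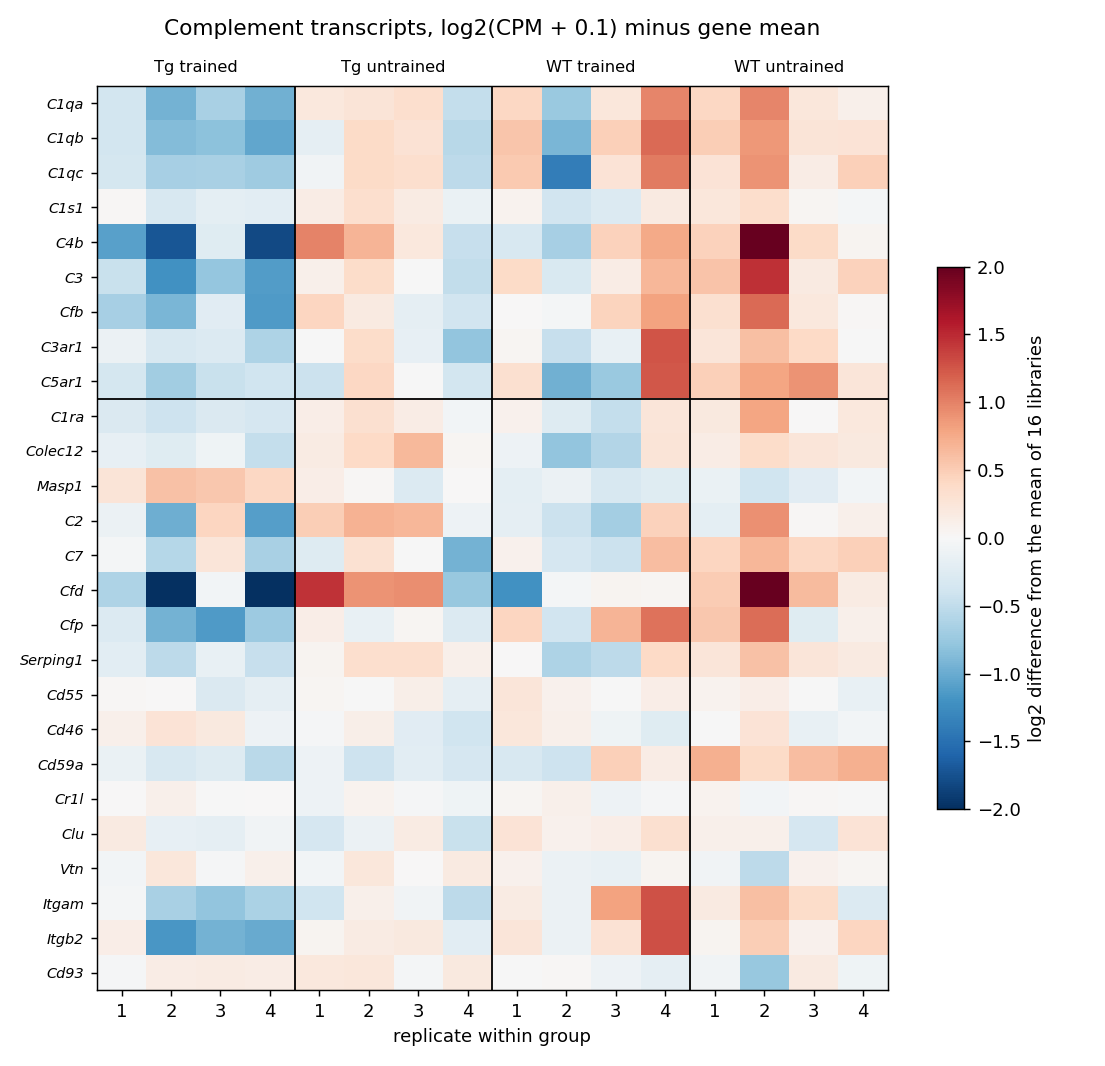
Log2(CPM + 0.1) of the 9 members (above the line) and of other complement genes that averaged at least 1 CPM (below it) minus each gene's mean over 16 libraries; columns are replicates 1 to 4 of Tg trained, Tg untrained, WT trained and WT untrained, and the colour scale ends at 2 in each direction. Trained Tg columns are mostly blue for the members, WT untrained replicate 2 and WT trained replicate 4 are red, and Masp1 runs the other way.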

How the data were processed

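RNA of skeletal muscle was purified with an RNeasy kit and made into libraries with a SMARTer mRNA-seq kit, per the labels' protocols. The authors deposited 1 table of raw RSEM expected counts, of which 12.48% were fractional. STAR 2.7.8a, RSEM 1.3.2 and the mm10 build are named in the submitters' processing notes; the annotation release and strand setting were not given in the sources used here. Reads shared by similar genes are apportioned by RSEM, and C4b and C1s1 therefore depend on how reads were split with C4a and C1s2, and antisense partners cannot be told apart.

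Expected counts were rounded and filtered with filterByExpr by group, which left 17490 of 55487 genes and at least 99.928% of each library's counts. The TMM factors lay between 0.924 and 1.285. An edgeR 4.0.16 quasi-likelihood model (R 4.3.3) with 1 mean per group was fitted to all 16 libraries, and 7 contrasts were tested with Benjamini-Hochberg adjustment over all tested genes. The biological coefficient of variation was 14.14%. CPM use TMM-scaled totals, errors are SD over libraries or SE of the fit, and length-scaled values use the union of exons. No replicates agreed within sampling noise (lowest chi-square per degree of freedom 7.084). On simulated data for Tg against WT with training (17245 genes), the fit recovered 73 of 100 genes with a 2-fold and 88 of 100 with a 4-fold change, sign included, and called 10 unchanged genes. The simulated counts were drawn independently for each gene, with no outlying library and no shared movement of genes. These rates therefore need not hold for the members.

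Results were recomputed with DESeq2 1.42.0, limma-voom (limma 3.58.1), robust dispersion, RLE size factors, without the filter, with a filter of 1 CPM in 4 libraries, with replicate number as a block, without each library in turn, without the 3 libraries above 10 CPM of Alb or the 4 above 10 CPM of Myh7, and with only the 8 libraries of a contrast. The 9 members and all lists were chosen with earlier results of these data known. Named in addition were called genes of the complement list, up to 3 of it with the smallest p in a contrast, 6 fixed regulators and receptors, and the 3 genes most like each member; the text prints a part of them, and any other gene was chosen after its values were seen. For 1 listed regulator, values are not reported here. Of the table's identifiers, 55141 were found in GENCODE M21 (GRCm38), 54349 with the same version. No genome interval was read from another build.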

Additional observations from a re-analysis of the deposited data

Results flagged for a closer look

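Within groups of 4 libraries, the gap between the highest or lowest library and its nearest neighbour was compared with the range of the group for each of the 9 genes, which made 36 tests. In 2 of the 36 the gap exceeded Dixon's 95% critical value for 4 samples, and chance alone flags about 1 group in 20. C1qc stood at 2.62 CPM in Tg trained replicate 1, where the other 3 libraries of the group measured 2.02 to 2.10 CPM, a gap of 0.857 of the range. C4b stood at 42.5 CPM in WT untrained replicate 2, where the other 3 measured 8.82 to 11.7 CPM, a gap of 0.914 of the range. That library also had 14.93 CPM of Alb, 11.2 CPM of Myh7, the highest C3 and Cfb values of the series and the highest TMM factor. The part of these in its C4b value was not tested.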

How the results depend on the processing

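Over 1597 refits of single members under the alternatives, 1538 kept their direction and their side of the threshold, 14 gained a call, 9 lost one and 36 changed sign. Only C3 in Tg over both states was called in the main fit, so no other result could lose a call. Of the 25 refits of that result, 16 kept the call and 9 lost it. Of the losses, 8 came from leaving out single libraries and 1 from the replicate number as a block (log2FC -0.93, adjusted p = 0.0537). Deviations of same-numbered libraries from their group means correlated at -0.153 to 0.176, above 0.1 in 6 of 24 pairs. Libraries of different numbers were not compared, so these values cannot show whether the numbers pair the libraries. Of the members, edgeR called 1 in Tg over both states, 3 with no filter, 0 with the replicate block and 4 with DESeq2; DESeq2 called 3 in Tg against WT with training and 1 for training over both genotypes, where edgeR called 0. Leaving out single libraries gave 0 to 5 called members in Tg over both states and 0 to 1 in Tg against WT with training.

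Counts of all called genes moved more. For training in Tg (0 genes) they were 5 with no filter, 132 with DESeq2, 104 without the Alb libraries, 9 without the Myh7 libraries and 123 with 8 libraries. For training in WT (25) they were 68 with DESeq2, 42 without the Alb libraries and 10 with 8 libraries. For Tg against WT with training (2) they were 1 with no filter, 1 with a CPM of at least 1, 55 with DESeq2, 1 with the replicate block and 5 with 8 libraries. For Tg against WT without training (130) they were 442 with DESeq2, 66 with the block, 32 without the Myh7 libraries and 40 with 8 libraries. For the difference of responses (9) they were 15 with no filter, 37 with DESeq2 and 4 without the Myh7 libraries. For training over both genotypes (80) they were 366 with DESeq2, 16 with the block, 584 without the Alb libraries and 41 without the Myh7 libraries, and for Tg over both states (196) 644 with DESeq2. Without single libraries the counts ran from 0 to 93 (training in Tg), 16 to 30 (training in WT), 1 to 16 (Tg against WT, trained), 43 to 138 (untrained), 6 to 12 (difference), 15 to 389 (training averaged) and 29 to 374 (Tg averaged). The causes were not tested.

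No uncalled sign was firm where the value was near 0. Without the Myh7 libraries the log2FC with training turned positive in WT for C1qa (0.127), C1qb (0.132), C1qc (0.065) and Cfb (0.119), in Tg for C3ar1 (0.039) and over both for C3ar1 (0.154), and C4b in Tg against WT without training was 0.121. Without the Alb libraries C4b was 0.054 there, C3ar1 with training in WT was -0.451, C1s1 in Tg against WT with training was 0.008, and the difference of responses was 0.021 for C1s1, 0.410 for C3ar1 and 0.729 for C5ar1. With limma-voom C3ar1 with training in WT was -0.144 and the C5ar1 difference 0.230, and with a CPM of at least 1 C1s1 in Tg against WT without training was 0.004; C3ar1 and C5ar1 did not pass that filter. Without single libraries the log2FC with training in WT ran from -0.435 to 0.101 for C1qa, -0.335 to 0.249 for C1qb, -0.471 to 0.167 for C1qc, -0.351 to 0.154 for Cfb and -0.565 to 0.223 for C3ar1. In Tg against WT it ran from -0.178 to 0.008 with training and -0.084 to 0.076 without it for C1s1, and from -0.910 to 0.143 without it for C4b. The difference of responses ran from -0.172 to 0.020 for C1s1, -0.491 to 0.306 for C3ar1 and -0.393 to 0.572 for C5ar1. Depth limits C3ar1 and C5ar1, with at most 88 and 69 counts.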
